A study of Arabidopsis thaliana with 4 samples.

Results

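The 10 genes described here are 9 enzyme genes of the chlorophyll pathway (HEMA1, GSA1, CHLH, CHLI1, GUN4, CRD1, PORB, PORC and CAO, counting the chelatase activator GUN4 among them) and GLK1, a transcription factor that controls such genes. They were chosen by locus name from the 33059 features of the deposited table, and all 10 were listed and passed the filter on low values, a mean of at least 1 TPM. RNA sequencing was used to measure transcripts of Arabidopsis thaliana, in rosette leaves at an age of 28 days. One genotype carried ERF4 under the 35S promoter of cauliflower mosaic virus (Pro35S:ERF4, called OE), and the other was wild type (WT). There were 2 libraries of each, 4 in all. The viral promoter is active in most cell types, and the labels give neither the accession, the number of transgenic lines nor the number of plants in a library. ERF4 belongs to the ethylene response factors and acts as a repressor of transcription. Levels are in TPM, a measure of transcript abundance, whose values correct for transcript length, so that levels of different genes can be compared, and sum to the same total in each library. Read numbers cannot be had from TPM, and the depth is therefore unknown.

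Chlorophyll is made in the chloroplast from glutamate. Glutamyl-tRNA reductase and an aminotransferase make 5-aminolevulinic acid, which is built up to protoporphyrin IX, where the path divides into a haem branch and a magnesium branch. Magnesium chelatase opens the magnesium branch, a cyclase closes the fifth ring, protochlorophyllide oxidoreductase (POR) performs the step that needs light, and an oxygenase turns part of the chlorophyll a precursor into the b form. Most of the enzymes are encoded in the nucleus, and the genes of several of them are activated by light, the clock and the GOLDEN2-LIKE factors GLK1 and GLK2, which act in chloroplast development.

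As a check of the labels, ERF4 (AT3G15210) was at 24.5 and 28.8 TPM in OE replicates 1 and 2 and at 9.68 and 10.6 TPM in WT replicates 1 and 2, higher in OE as labelled without passing the threshold over all features (limma, Benjamini-Hochberg adjusted p = 0.381). The libraries also differed within a genotype in photosynthetic transcripts. The leaf markers RBCS1A, LHCB3, CA1 and RCA were abundant throughout and each highest in WT replicate 1, with a summed level of 19558 and 18441 TPM in OE and of 33498 and 13707 TPM in WT. The markers of epidermis (3), guard cells (2) and phloem (2) all overlapped between the genotypes, and so did 4 root markers, which were present at 5.75 to 47.6 TPM. Overlap was common, with 14433 of the 20010 features tested. Of the flower markers AP3, PI and AG none exceeded 1.12 TPM, the senescence marker SAG12 was listed at 0 in every library, and 4 of 6 seed markers were tested. Of these CRU3 was called lower in OE, CRA1 and OLEO1 were also lower in each OE library than in each WT library, and SESA2 overlapped, at 23.8 and 3.51 TPM in OE and at 0.26 and 11.7 TPM in WT. The summed level of the 6 was 24.3 and 7.28 TPM in OE and 43.1 and 62.3 TPM in WT. The part of these cell types in the results was not tested. Whether the replicates were separate plants is not in the labels, and the p-values therefore reflect library-to-library spread, which may be technical.

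HEMA1 and GLK1 were the members with both OE libraries below both WT libraries. HEMA1 averaged 36.8 ± 0.269 TPM in OE and 235 ± 193 TPM in WT (SD, n = 2 each). GLK1 averaged 34.0 ± 2.25 TPM in OE and 75.0 ± 13.9 TPM in WT. For the other 8 members the OE and WT values overlapped. In bulk leaves fewer cells of a type and less RNA per cell cannot be told apart. None of the 10 members passed the threshold of an adjusted p of 0.05 over all 20010 tested features (limma on log2(TPM + 1), Benjamini-Hochberg). Among all tested features 0.09% passed it, 0.03% lower and 0.06% higher in OE. An unadjusted limma p under 0.05 was found for 2 of the 10 members, HEMA1 and GLK1, and for 5.3% of all tested features. Both OE libraries lay below both WT libraries for 2 of the 10 members and for 14.2% of all tested features, so that this count alone is close to the background.

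**Figure D1:**
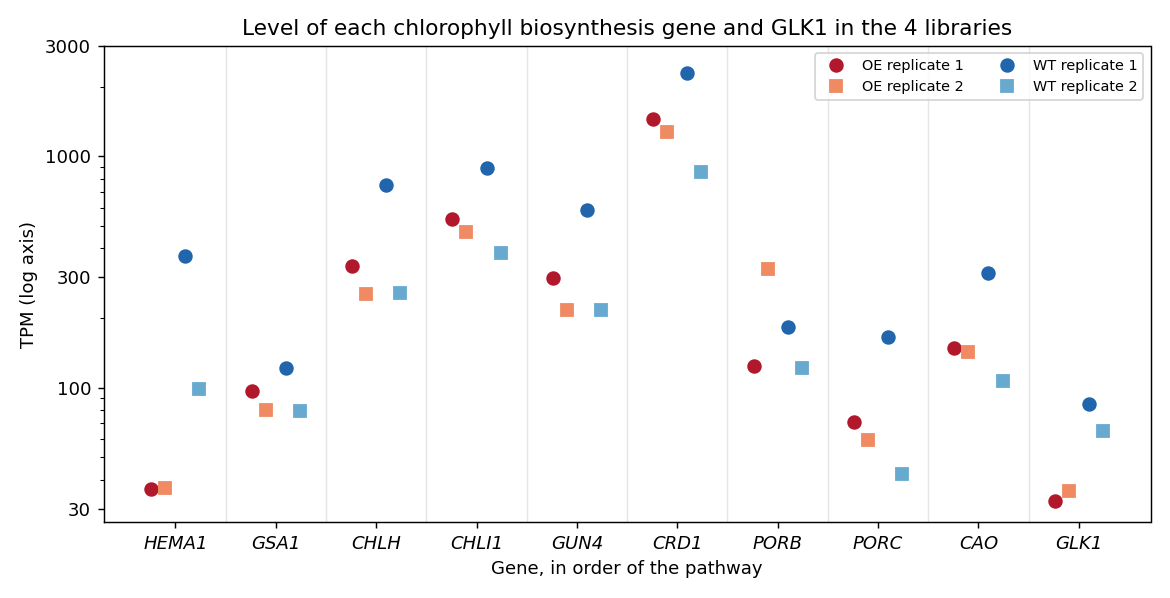
Level in TPM on a log axis of each of the 10 genes in each library, with OE in red and orange and WT in dark and light blue; each point is 1 library. HEMA1 and GLK1 have both OE points below both WT points, and for 7 of the other genes the OE points lie between the 2 WT points or next to the lower one.

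HEMA1 (AT1G58290) encodes the glutamyl-tRNA reductase of green tissue, the first committed enzyme of the pathway and a main point of its control. It was at 36.6 and 37.0 TPM in OE replicates 1 and 2 and at 371 and 98.5 TPM in WT replicates 1 and 2. The OE libraries were nearly equal to each other, while the WT libraries differed 3.77-fold, and the lower WT library was still well above both OE libraries. The mean was 6.38-fold lower in OE. The log2 fold change was -2.35 (SE 0.560; limma unadjusted p = 0.00159, Benjamini-Hochberg adjusted p = 0.259), and 0.61% of tested features had a smaller p. Leaving out WT replicate 1 gave -1.40 and leaving out WT replicate 2 gave -3.30, so the size depended on the WT library. The direction could not change, because both OE libraries lay below both WT libraries. With 2 libraries against 2 an exact two-sided permutation test of a single gene cannot give a p below 0.33.

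GLK1 (AT2G20570, GPRI1 in the reference) was at 32.4 and 35.6 TPM in OE replicates 1 and 2 and at 84.8 and 65.2 TPM in WT replicates 1 and 2. Here the WT libraries differed by only 1.30-fold, the smallest spread between them among the 10 members. The mean was 2.21-fold lower in OE. The log2 fold change was -1.11 (SE 0.374; limma unadjusted p = 0.0131, Benjamini-Hochberg adjusted p = 0.583), with 2.24% of tested features at a smaller p. It stayed between -1.30 and -0.92 in all 14 other settings tried, several of which leave a fold change as it is.

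The 250 bases before the annotated start of HEMA1 and GLK1 are shown because these are the 2 members whose genotypes did not overlap, and those of CAO because its window holds the most matches to the G-box, an element bound by light-regulated factors. They are RefSeq sequences of assembly TAIR10.1, looked up by locus name. HEMA1 is on the minus strand (chr1:21626403-21626652), GLK1 on the plus strand (chr2:8855052-8855301) and CAO on the minus strand (chr1:16851272-16851521). Each is written 5′ to 3′ along the gene, with G-boxes in capitals.
HEMA1: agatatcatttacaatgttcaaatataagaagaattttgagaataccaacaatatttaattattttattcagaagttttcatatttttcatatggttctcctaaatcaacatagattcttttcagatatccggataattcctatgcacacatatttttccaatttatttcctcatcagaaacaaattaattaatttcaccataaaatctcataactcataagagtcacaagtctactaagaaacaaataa
GLK1: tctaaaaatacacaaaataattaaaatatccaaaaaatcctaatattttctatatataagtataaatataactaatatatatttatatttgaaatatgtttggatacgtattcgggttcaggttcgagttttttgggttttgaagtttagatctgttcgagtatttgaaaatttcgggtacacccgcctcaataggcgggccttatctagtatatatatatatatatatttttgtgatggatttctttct
CAO: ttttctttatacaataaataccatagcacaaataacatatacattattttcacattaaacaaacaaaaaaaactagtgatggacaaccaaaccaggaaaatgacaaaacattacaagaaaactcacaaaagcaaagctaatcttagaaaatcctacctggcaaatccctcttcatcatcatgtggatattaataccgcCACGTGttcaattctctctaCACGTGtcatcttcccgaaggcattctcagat

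In the windows of all 10 members 4 motifs were searched for on both strands, and no matches overlapped. The windows of CHLI1, GUN4, CRD1, PORB and PORC reach into a neighbouring gene. The G-box CACGTG was found in CRD1, 52 bases before the start, and in CAO, 52 and 32 bases before it, and in 6.49% of the windows of 27443 protein-coding genes. GCCGCC, the core of the GCC-box that ERF proteins bind, was found in PORC, 130 bases before the start, and in 1.87% of all windows. CCAATC, letters reported as enriched upstream of GLK-induced genes, was found in GUN4 (13 bases before the start) and PORB (219 and 22 bases), and in 10.2% of all windows. The core of the evening element of clock-controlled genes, AAATATCT, was found in PORB (141 bases) and in 4.79% of all windows. The HEMA1 and GLK1 windows held none of the 4. A match is only a match of letters, and windows without one may have such letters further away.

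GSA1 (AT5G63570), the aminotransferase that follows HEMA1 in making 5-aminolevulinic acid, was at 96.5 and 79.9 TPM in OE replicates 1 and 2 and at 121 and 79.6 TPM in WT replicates 1 and 2. Both OE libraries lay between the WT libraries. Its log2 fold change was -0.16 (SE 0.410; limma, Benjamini-Hochberg adjusted p = 1.0), the second smallest in size of the 10 members. HEMA1 was thus lower than its neighbour in the pathway in OE, at 0.379 and 0.463 times the level of GSA1 in OE replicates 1 and 2. In WT replicates 1 and 2 it was at 3.06 and 1.24 times the level of GSA1.

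The magnesium chelatase genes followed the difference between the WT libraries. CHLH (AT5G13630), the large subunit that binds the porphyrin, was at 336 and 253 TPM in OE replicates 1 and 2 and at 749 and 257 TPM in WT replicates 1 and 2. CHLI1 (AT4G18480), the main form of the ATPase subunit, was at 538 and 469 TPM in OE and at 886 and 380 TPM in WT, in the same order of replicates. GUN4 (AT3G59400), which binds porphyrins and stimulates the chelatase, was at 296 and 217 TPM in OE and at 587 and 216 TPM in WT. WT replicate 1 was the highest library for each of these genes, and the OE libraries were at 0.984 to 1.42 times WT replicate 2. The log2 fold changes were -0.59 (SE 0.576) for CHLH, -0.21 (SE 0.562) for CHLI1 and -0.49 (SE 0.555) for GUN4, all close to or below their standard errors (limma, Benjamini-Hochberg adjusted p = 1.0 for each).

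Next in the pathway, CRD1 (AT3G56940), a subunit of the cyclase that makes protochlorophyllide, was the most abundant member, at 1457 and 1271 TPM in OE replicates 1 and 2 and at 2297 and 859 TPM in WT replicates 1 and 2. Its means of 1364 ± 131 TPM in OE and 1578 ± 1017 TPM in WT gave a log2 fold change of -0.05 (SE 0.667; limma, Benjamini-Hochberg adjusted p = 1.0), which was 0.12 with quantile normalization. CAO (AT1G44446), the chlorophyllide a oxygenase that makes the b form, was at 148 and 143 TPM in OE and at 314 and 107 TPM in WT. Both OE libraries again lay between the WT libraries, and the log2 fold change was -0.33 (SE 0.529; limma, Benjamini-Hochberg adjusted p = 1.0).

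The 2 POR genes differed from each other in their pattern over the libraries. PORC (AT1G03630), a form expressed in green tissue in the light, was at 71.0 and 59.3 TPM in OE replicates 1 and 2 and at 166 and 42.3 TPM in WT replicates 1 and 2, a 3.92-fold spread between the WT libraries. PORB (AT4G27440), a form present in seedlings and adult leaves, was at 124 and 324 TPM in OE and at 182 and 122 TPM in WT. PORB was the only member with its highest value in an OE library, replicate 2, which was 2.61 times OE replicate 1. The other 9 members had ratios of OE replicate 2 to OE replicate 1 between 0.731 and 1.10. The OE libraries were thus more than 2-fold apart for 1 of the 10 members and for 13.2% of all tested features. The log2 fold change was 0.43 (SE 0.525) for PORB and -0.37 (SE 0.567) for PORC (limma, Benjamini-Hochberg adjusted p = 1.0 for each). Without OE replicate 2 the value for PORB was -0.26. The ratio of PORB to PORC within a library was 1.75 and 5.47 in OE and 1.10 and 2.89 in WT, which overlapped (exact two-sided permutation p = 0.67). PORA, the form of etiolated seedlings, was at 0.15 and 1.60 TPM in OE and at 0.27 and 0.10 TPM in WT and was too low to be tested.

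WT replicate 1 was higher than WT replicate 2 for all 10 members, by 1.30-fold for GLK1 to 3.92-fold for PORC with a median of 2.70-fold. Over all tested features the median ratio of these libraries was 0.774, and 5.19% were more than 2-fold higher in WT replicate 1. WT replicate 1 was the highest of the 4 libraries for 9 of the 10 members and for 16.1% of all tested features. The median log2 fold change of the members was -0.35, beside -0.02 over all tested features. Without WT replicate 1 it was 0.32, and 8 of 10 members were positive and 2 negative, while over all tested features 65.2% were negative and the median was -0.16. Without WT replicate 2 it was -1.16, and 9 of 10 were negative, while over all tested features 38.8% were negative and the median was 0.14. HEMA1 and GLK1 were negative in both of these fits, which follows from both OE libraries lying below both WT libraries. PORB was positive in both fits. Genes of dark or sugar shortage moved with this split of the WT libraries: all 5 of the list (ASN1, DIN10, SEN1, DIN2 and BCAT2) were lowest in WT replicate 1, as were 42.8% of all tested features, with a summed level of 1594 and 2891 TPM in OE replicates 1 and 2 and of 84.4 and 1838 TPM in WT replicates 1 and 2. Between the genotypes all 5 had a positive log2 fold change, with a median of 2.53 and 0 called (limma, Benjamini-Hochberg). Without WT replicate 1 that median was 0.11, with 3 positive and 2 negative. ASN1 and DIN10 had both OE libraries above both WT libraries, as had 13.7% of all tested features. Both also had an unadjusted limma p under 0.05, as had 5.3% of all tested features. The part of these 5 genes in the result was not tested.

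**Figure D2:**
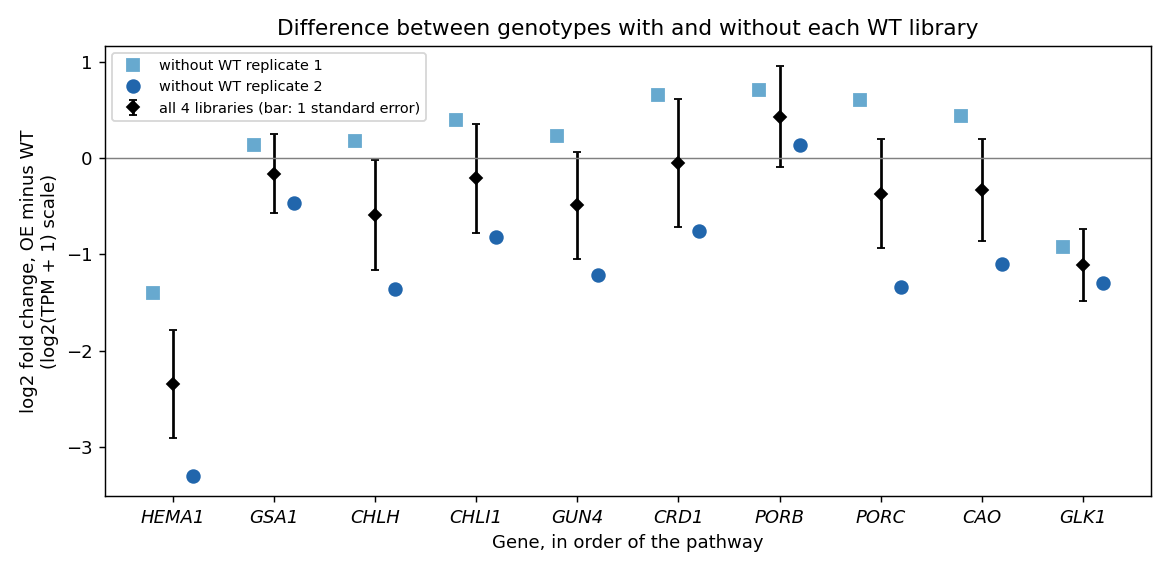
The log2 fold change of OE over WT on the log2(TPM + 1) scale for each gene, from all 4 libraries (black, with 1 standard error), without WT replicate 1 (light blue squares) and without WT replicate 2 (dark blue circles). HEMA1 and GLK1 stay below 0 and PORB above 0 in all 3 fits, whereas the other 7 genes change sign. For HEMA1 and GLK1 the sign is fixed by both OE libraries lying below both WT libraries.

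Ratios of members within a library do not depend on the scaling of the libraries. The ratios of HEMA1 to other members were chosen after the values had been seen, and a ratio to PORB was not among them. HEMA1 was at 0.109 and 0.146 times the level of CHLH in OE replicates 1 and 2 and at 0.495 and 0.384 times in WT replicates 1 and 2. Relative to CAO it was at 0.247 and 0.258 in OE and at 1.18 and 0.918 in WT. Relative to PORC it was at 0.515 and 0.624 in OE and at 2.24 and 2.33 in WT. For the 7 enzymes GSA1, CHLH, CHLI1, GUN4, CRD1, PORC and CAO both OE ratios lay below both WT ratios, and the geometric mean of the ratio was 3.45-fold (CHLH) to 5.04-fold (CRD1) lower in OE. Each has an exact two-sided permutation p = 0.33, the smallest that 2 against 2 can give, and also 0.33 when adjusted over the 8 ratios of HEMA1 (these and GLK1). All of them share the values of HEMA1 and are not independent of each other. The WT libraries, which differed 3.77-fold in HEMA1 itself, differed by less than that in all 7 of these ratios. This had to be so, because the 7 enzymes were themselves 1.52-fold (GSA1) to 3.92-fold (PORC) higher in WT replicate 1 than in WT replicate 2.

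**Figure D3:**
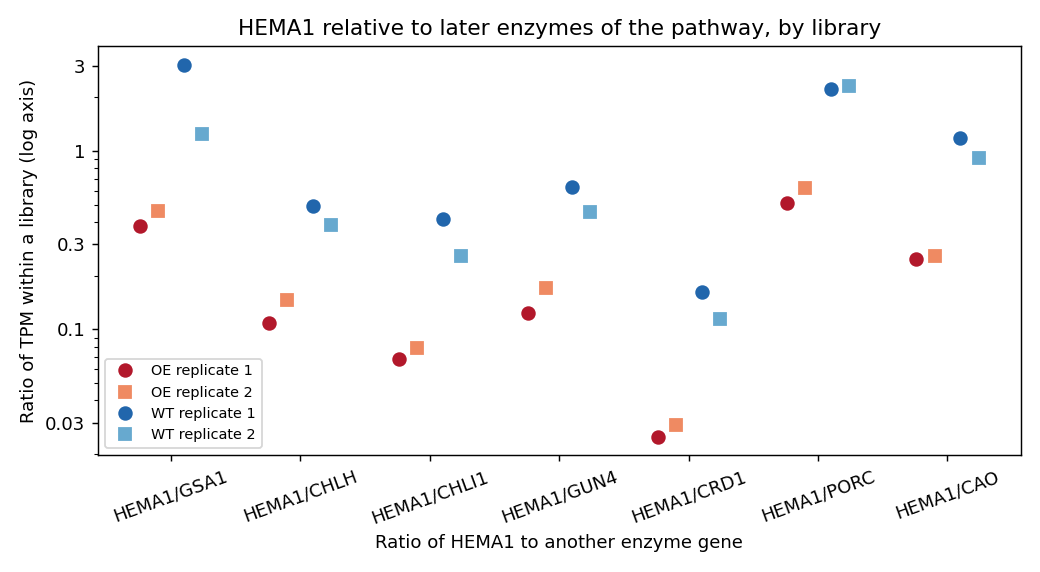
Ratio of the TPM of HEMA1 to that of 7 other enzyme genes (PORB was left out) within each library, on a log axis, with OE in red and orange and WT in dark and light blue. In each column both OE points lie below both WT points, for example at 0.109 and 0.146 against 0.495 and 0.384 for CHLH.

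Further ratios, 6 of a member to an isoform or partner outside the 10 genes and 2 between members (PORB to PORC and CHLH to CHLI1), had been listed in the plan with earlier results of these data known. HEMA2, the glutamyl-tRNA reductase isoform known mainly from roots and other non-green tissue, was at 23.9 and 18.6 TPM in OE replicates 1 and 2 and at 16.8 and 26.8 TPM in WT replicates 1 and 2, which overlapped. HEMA1 was therefore 1.53 and 1.99 times as abundant as HEMA2 in OE, against 22.1 and 3.68 times in WT (exact two-sided permutation p = 0.33). CHLI1 was 10.9 and 9.31 times as abundant as its paralog CHLI2 in OE and 11.1 and 13.5 times in WT (exact two-sided permutation p = 0.33), and reads shared by these close paralogs make their separate levels uncertain. GSA1 and GSA2, also close paralogs, stood at a ratio of 0.908 and 1.07 in OE and 0.776 and 1.19 in WT, with overlap. The third chelatase subunit, CHLD, was at 120 and 128 TPM in OE and at 152 and 109 TPM in WT. The ratio of CHLH to CHLI1 was 0.624 and 0.539 in OE and 0.845 and 0.676 in WT (exact two-sided permutation p = 0.33). Of these 8 ratios, 4 did not overlap between the genotypes, among them CAO to NYC1, given with the chlorophyll cycle. Of single tested features, 14.2% had both OE libraries below and 13.7% above both WT libraries. The share over ratios of other genes was not computed, so the count of 4 is no result by itself. Adjusted over the 8 (Benjamini-Hochberg), the smallest exact p was 0.67.

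Among 28 further genes of the tetrapyrrole pathway 24 were tested, and 0 were called higher or lower (limma, Benjamini-Hochberg), with 0 at an unadjusted p under 0.05. Of all tested features 0.09% were called and 5.3% had such a p. For the 24 genes the direction was mixed. The median log2 fold change of the 24 was -0.03, with a range of -0.60 to 0.32. Both OE libraries lay below both WT libraries for 3 of them, HEMA3, HEMD and CHLP, and above for 1, HEMB1 (HEMA3, HEMD and HEMB1 named after their values were seen), where all tested features gave 14.2% and 13.7%. HEMA3, a rarely expressed isoform, was at 0.86 and 0.41 TPM in OE replicates 1 and 2 and at 1.77 and 1.17 TPM in WT replicates 1 and 2, levels too low to weigh. HEMD, the uroporphyrinogen III synthase, was at 54.5 and 44.1 TPM in OE and at 62.6 and 57.4 TPM in WT. CHLP, the geranylgeranyl reductase that makes the phytol tail, was at 705 and 642 TPM in OE and at 1211 and 718 TPM in WT. HEMB1, which joins 2 molecules of 5-aminolevulinic acid, was at 187 and 174 TPM in OE and at 166 and 164 TPM in WT.

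The difference between the WT libraries is given here by branch, as values of 2 libraries with no test between branches. In the 7 tested genes of the magnesium branch beside the members, WT replicate 1 was the highest library for all 7, with a median ratio of WT replicate 1 to WT replicate 2 of 2.22. In the 12 tested genes leading to protoporphyrin it was highest for 7, with a median ratio of 1.44. In the 5 tested genes of the haem and bilin branch it was highest for 1, with a median ratio of 0.923. Over all tested features it was highest for 16.1%, with a median ratio of 0.774. CHLM, the methyltransferase that follows the chelatase, was at 242 and 306 TPM in OE replicates 1 and 2 and at 332 and 164 TPM in WT replicates 1 and 2. DVR, the vinyl reductase, was at 58.8 and 49.1 TPM in OE and at 142 and 40.6 TPM in WT, and CHLG, the chlorophyll synthase, at 91.5 and 80.0 TPM in OE and at 119 and 50.5 TPM in WT. As with the members CHLI1, CRD1 and CAO, the OE values of DVR and CHLG lay between the WT values.

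The light-harvesting genes, whose proteins bind the chlorophyll made here, had the WT pattern of the enzymes but not their OE pattern. In 10 such genes WT replicate 1 exceeded WT replicate 2 by 2.09-fold to 3.57-fold, and OE replicate 2 exceeded OE replicate 1 by 1.44-fold to 3.24-fold. PORB lay inside the second range, at 2.61-fold, but below the first, at 1.49-fold between the WT libraries, and the other 8 enzyme genes, at 0.731-fold to 1.01-fold, lay below it. No light-harvesting gene was called (limma, Benjamini-Hochberg), 0 had an unadjusted p under 0.05, and all 10 overlapped between the genotypes. Of the 20010 tested features 0.09% were called, 5.3% had such a p and 14433 overlapped, so these counts do not set the light-harvesting genes apart.

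GLK1 was accompanied by further regulators of chloroplast development with low OE values. GLK2, which acts with GLK1, was at 95.2 and 130 TPM in OE replicates 1 and 2 and at 182 and 194 TPM in WT replicates 1 and 2. The log2 fold change of GLK2 was -0.75 (SE 0.417; limma, Benjamini-Hochberg adjusted p = 1.0). GNC, a GATA factor that promotes greening, was at 8.84 and 13.1 TPM in OE and at 23.3 and 33.9 TPM in WT, with a log2 fold change of -1.31 (SE 0.381; limma, Benjamini-Hochberg adjusted p = 0.450). Its relative CGA1 was at 12.5 and 13.8 TPM in OE and at 16.8 and 20.1 TPM in WT. For all of these both OE libraries lay below both WT libraries, and none passed the threshold. The ratio of GLK1 to GLK2 was 0.340 and 0.273 in OE and 0.465 and 0.336 in WT, which overlapped. In the list of 11 regulators these 3, GUN1 and PIF1 had OE below WT, PIF3 and PIF5 had OE above WT, and 4 overlapped, beside 14.2% of all tested features with OE below and 13.7% with OE above WT. GUN1 and the PIF genes were named after their values were seen. The median log2 fold change of the list was -0.22. FLU, which holds back the glutamyl-tRNA reductase protein in the dark, was at 94.5 and 106 TPM in OE and at 104 and 76.8 TPM in WT.

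**Figure D4:**
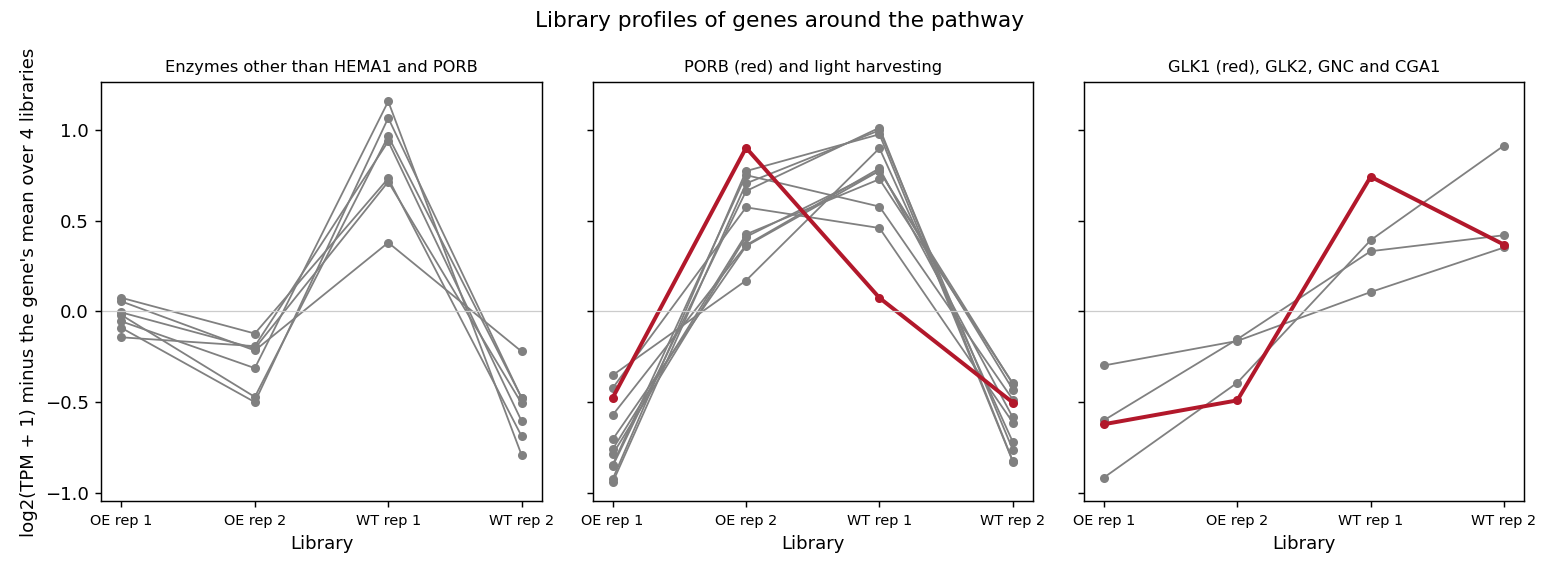
Each gene's log2(TPM + 1) minus its own mean over the 4 libraries, for 7 enzyme genes (left), PORB in red with 10 light-harvesting genes in grey (middle), and GLK1 in red with GLK2, GNC and CGA1 in grey (right). Lines only join the values of 1 gene. WT replicate 1 is highest in the left panel, OE replicate 2 and WT replicate 1 are high in the middle panel, and both OE libraries lie below both WT libraries for each gene in the right panel.

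Chlorophyll b is turned back into the a form by NYC1, the counterpart of CAO in the chlorophyll cycle. NYC1 was at 16.4 and 13.1 TPM in OE replicates 1 and 2 and at 37.9 and 56.7 TPM in WT replicates 1 and 2. Its log2 fold change was -1.6 (SE 0.377, limma, Benjamini-Hochberg adjusted p = 0.259), beside -0.33 for CAO. Both OE libraries lay below both WT libraries for NYC1, as for 14.2% of all tested features, whereas CAO overlapped. The ratio of CAO to NYC1 was 9.04 and 11.0 in OE and 8.28 and 1.89 in WT, with both OE values above both WT values (exact two-sided permutation p = 0.33). Between OE and WT replicate 1 the ratio was close, and WT replicate 2 stood apart. HCAR, which completes the return to chlorophyll a, was at 14.1 and 7.75 TPM in OE and at 14.1 and 6.64 TPM in WT.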

How the data were processed

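The table that the authors deposited gives TPM for each gene in each library. It also has 2 columns with their mean TPM of each genotype, which entered no test. The submitters' processing notes name fastp, HISAT and RSEM without versions or roles. No build, annotation or filter is given in the sources used here. For the second WT library the title says replicate 2, and the label that names its column, which has another number, was followed.

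Of 33059 features, the 20010 whose mean over all libraries reached 1 TPM were fitted on log2(TPM + 1) in limma 3.58.1 (R 4.3.3), with genotype as the only term and a trend of variance on mean level. Fold changes on that scale understate the change of low genes. P-values were two-sided and adjusted over all tested features (Benjamini-Hochberg). The fit was also run on simulated data with independent noise for each gene. Those data had no shift shared by many genes of 1 library, so they cannot show how the fit handles such a shift. Figures were drawn with matplotlib 3.10.9 in Python 3.11.15. All 32548 nuclear locus names occur in RefSeq TAIR10.1, which gave gene names and the 250 bases before gene starts. All members were named, with isoforms and partners listed in the plan. The cell type markers and the genes of dark or sugar shortage were named from lists in the plan. Of the latter, ASN1 and DIN10 were singled out by their values. Other genes are marked as named after their values were seen. The members and lists were chosen with earlier results of these data known. The alternatives changed the pseudocount (0.1 or 5), the filter (none, or 5 TPM), the scaling (quantile, median-ratio, or without organelle genes) and the variance model (robust, or no trend), used the replicate number as a block, or left out 1 library.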

Additional observations from a re-analysis of the deposited data

How the results depend on the processing

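With 2 libraries per genotype and an unknown depth, only large differences can pass a test across all genes. Of the 20010 features 18 were called as designed. The count was 63 when a mean of 5 TPM was required and 108 under the robust prior. It was 0 with no filter, quantile normalization or median-ratio scaling (limma, with 1072, 1114 and 1129 features at an unadjusted p under 0.05). The prior degrees of freedom, the weight limma gives to the variance shared across features, were 8.73 as designed. They were 17.1 with 5 TPM required and 34 under the robust prior. With no filter, quantile normalization and median-ratio scaling they were 3.49, 3.21 and 3.19. Why the count changed was not tested. Leaving out either WT replicate 1 or WT replicate 2 gave 0 calls (1088 and 1707 features at an unadjusted p under 0.05). Leaving out OE replicate 1 gave 147 and OE replicate 2 gave 51; the lone library left in a genotype is assumed to vary like the other genotype. No member and no other pathway gene was called in these fits. The replicate number as a block gave 338 calls and 1 called member, HEMA1 (limma, Benjamini-Hochberg adjusted p = 0.000375). In that fit, with 1 residual degree of freedom, the prior degrees of freedom were infinite. Each p then rested on the variance trend over all features, and the spread of HEMA1 itself did not enter it. Same-numbered libraries deviated together with a correlation of only 0.0325 across features. This value shows no pairing over the features as a whole and cannot decide it for single genes. Without the block the adjusted p of HEMA1 ran from 0.0553 (mean of 5 TPM required) to 0.999 (no filter).

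The median log2 fold change of the members ranged from -1.16 to 0.32 when 1 library was left out, the highest without WT replicate 1. The ranges of members that changed sign were -0.46 to 0.14 for GSA1, -1.36 to 0.18 for CHLH, -0.82 to 0.40 for CHLI1, -1.21 to 0.23 for GUN4, -0.76 to 0.66 for CRD1, -0.26 to 1.11 for PORB, -1.34 to 0.61 for PORC and -1.10 to 0.44 for CAO. CRD1 was also positive with quantile normalization (0.12). HEMA1 (-3.30 to -1.40) and GLK1 (-1.30 to -0.92) were negative in all 14 alternatives, which are not 14 separate checks. Leaving out 1 library cannot change their sign, because both OE libraries lay below both WT libraries. The filters, the variance models and the block leave a fold change as it is.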

Other observations

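Genes of chlorophyll breakdown showed no common direction. Of the 11 tested genes of the chlorophyll cycle and breakdown, 0 were called (limma, Benjamini-Hochberg), 2 had an unadjusted p under 0.05, NYC1 and CLH1, and the median log2 fold change was 0.05. Of all tested features 0.09% were called and 5.3% had such a p. CLH1, a chlorophyllase, was at 7.53 and 4.89 TPM in OE replicates 1 and 2 and at 34.9 and 28.2 TPM in WT replicates 1 and 2 (limma, Benjamini-Hochberg adjusted p = 0.0771). PPH, the pheophytinase of leaf senescence, was at 56.5 and 56.3 TPM in OE and at 18.8 and 54.5 TPM in WT, so that WT replicate 1, the library highest in the biosynthesis genes, was the lowest here. The genes of this paragraph other than NYC1 were named after their values were seen.

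Among the clock genes, which govern the daily rhythm of several chlorophyll genes, 5 of 9 (LHY, PRR9, PRR7, PRR5 and GI) were more than 2-fold apart between the OE libraries, beside 13.2% of all tested features. LHY, a morning gene, was at 236 and 64.2 TPM in OE replicates 1 and 2 and at 178 and 180 TPM in WT replicates 1 and 2. PRR7, a day gene, was at 22.8 and 150 TPM in OE and at 39.9 and 68.0 TPM in WT. PRR9, PRR5 and GI were also higher in OE replicate 2, by 4.52-fold, 2.54-fold and 3.77-fold. The light-harvesting genes and PORB also differed between the OE libraries. Every other member, HEMA1 and GLK1 included, had a ratio of OE replicate 2 to OE replicate 1 between 0.731 and 1.1. These clock genes were picked after their values were seen, and a link between these patterns was not tested.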
